A study of Mus musculus with 12 samples.

Results

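The genes described here encode butyrophilin 1a1 (Btn1a1) and 9 proteins listed with it as partners of the milk fat globule membrane. That membrane wraps milk fat as it leaves the secretory cell of the mammary gland, and the list does not show that each of the 9 acts there. The 10 genes were chosen by name (Btn1a1, Xdh, Plin2, Cidea, Cd36, Muc1, Mfge8, Adipor2, Slc34a2 and Rab18), and all 10 were found among the 11834 genes of the deposited table. Polyadenylated RNA was sequenced from homogenised lactating mammary glands of 12 C57BL/6 mice in lactation 1, with 1 library per mouse. The knockout (KO) group held 7 mice of genotype Btn1a1-/-, of which 5 were taken on day 10, KO replicate 3 on day 8 and KO replicate 4 on day 11. The wild-type (WT) group held 5 mice, of which 3 were taken on day 10, WT replicate 2 on day 9 and WT replicate 3 on day 11. The labels describe neither the knockout allele nor which of the study's mutant lines the KO mice came from. Mutant lines were kept by crossing heterozygotes while WT mice were bred in separate cages, and the labels name a pair of chows without tying either to a mouse, so genotype, breeding and diet cannot be told apart.

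In lactation, triglyceride droplets gather in the cytoplasm of the luminal cell, move to its apical side and bud off wrapped in plasma membrane. The wrapping is the milk fat globule membrane. In the current view of mouse and bovine globules, the cytoplasmic tail of butyrophilin binds xanthine dehydrogenase, and both lie against perilipin 2 on the droplet surface. Mice that lack butyrophilin 1a1 are known to secrete abnormal, unstable fat globules. Cidea and Rab18 act on the droplet before it leaves the cell, while Cd36, mucin 1 and Mfge8 (lactadherin) reach milk as part of the globule coat.

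Expression is given as the authors' log2 CPM, a count scaled to a common library total, on a log2 scale and already quantile-normalized between libraries. A value therefore mostly encodes a gene's rank within its library. At 67.1% of ranks the 12 libraries held values within 0.01 log2 of each other. Log2 changes are KO minus WT, with the standard error (SE) from limma fitted to the whole table. The threshold for a call was a Benjamini-Hochberg adjusted p under 0.05. In that fit 9.36% of all genes were called, with 4.84% above WT in KO and 4.52% below. Among the 10 genes, 5 were called: Btn1a1, Slc34a2, Plin2 and Muc1 were lower and Adipor2 was higher in KO. In the authors' deposited table the same 5 of the 10 had an adjusted p under 0.05, against 9.64% of all genes. Apart from Btn1a1, 8 of the 9 genes had a log2 change below 0, against 55.4% of all genes, and their median was -0.30, against -0.03 over all genes. Values of KO libraries lay wholly apart from those of WT libraries for 4 of the 10 genes, against 5.43% of all genes. These shares describe a list chosen with earlier results known, and no test was made over the list. Values come from whole glands, in which fewer cells of a type and less RNA per cell cannot be told apart.

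Of 10 luminal secretory markers 9 were measured and 1 was called, against 9.36% of all genes. That was Krt8, a keratin of luminal cells, which rose by 0.42 (SE 0.12, limma adjusted p = 0.0389). The lowest change among the 9 markers was that of Elf5, a transcription factor of the secretory lineage, at -0.25 (SE 0.09, adjusted p = 0.114). The milk protein genes Csn2 and Wap among them stood at one value in all 12 libraries, 17.27 log2 CPM for Csn2 and 16.54 for Wap, values that follow from rank. Csn2 and Wap make up most of the list's sum of 278704 to 318699 CPM in KO and 305836 to 307195 CPM in WT. Neither that sum nor the count of calls can therefore show whether secretory content differed. Skeletal muscle markers summed to 97.5 to 1620 CPM in KO and 66.5 to 462 CPM in WT, and KO replicate 4 held the highest sum. Of these 9, 0 were called by limma, 0 in the authors' deposited table and 0 at an unadjusted p under 0.05. Over all genes those shares were 9.36%, 9.64% and 26.6%. Log2 changes of the 9 muscle markers ran from 0.59 (Myh4) to 1.43 (Myl1).

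**Figure D1:**
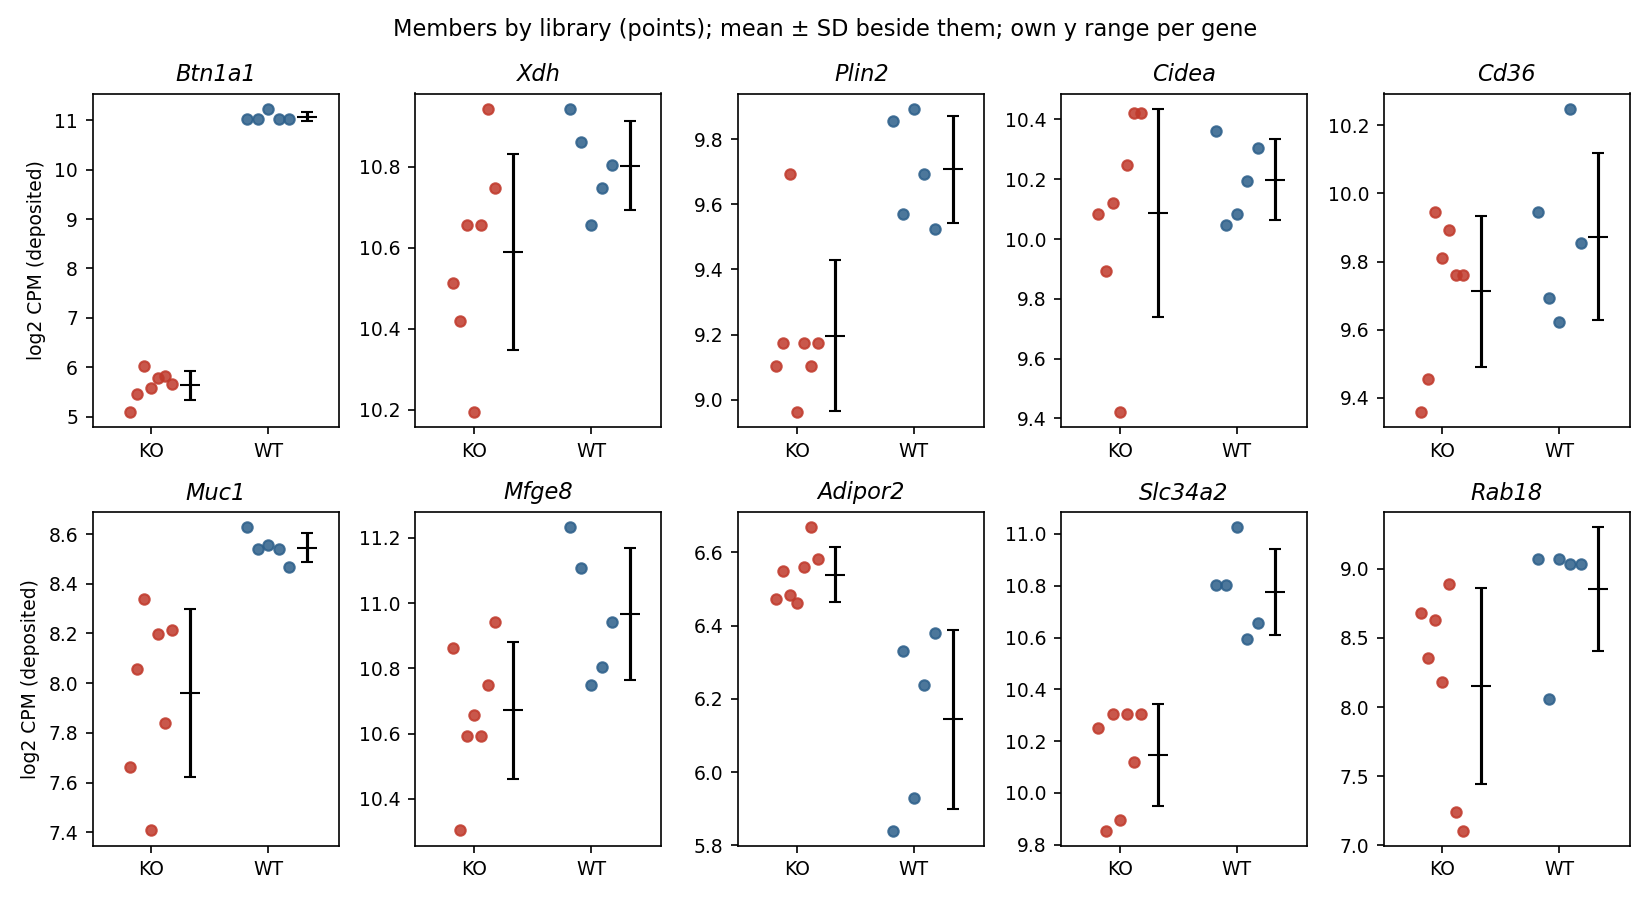
Deposited log2 CPM (y axis, a separate range for each gene) of the 10 genes in each of 7 KO (red, left) and 5 WT (blue, right) libraries, with the mean and SD beside the points. The groups do not overlap for Btn1a1, Muc1 and Slc34a2, lower in KO, and for Adipor2, higher in KO.

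Btn1a1 is the targeted gene and encodes a major integral protein of the globule membrane. It lies at chr13:23456992-23465901 on the minus strand (mm10, GENCODE M21) and its longest coding transcript has 8 exons. Btn1a1 stood at 5.10, 5.66 and 6.02 log2 CPM as the lowest, median and highest of the 7 KO libraries, against 11.03 in WT replicates 1, 2, 4 and 5 and 11.23 in WT replicate 3. Every KO library lay far below every WT library, with a log2 change of -5.43 in KO (SE 0.13, limma adjusted p = 5.2e-13). In rank, Btn1a1 lay between places 604 and 1406 in KO libraries, and in WT libraries at place 21 in 4 and at place 19 in WT replicate 3. The KO libraries ran from 34.2 CPM in KO replicate 1 to 65.1 CPM in KO replicate 3, a small spread beside the distance to WT. Which part of the gene the remaining KO reads came from cannot be read from values per gene.

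The 5 nearest measured genes on each side of Btn1a1 ran from Zscan26, a zinc finger gene 2003 kb before it, through Abt1, a nuclear protein gene 33.1 kb away, to Hfe, the iron-regulating MHC-like protein, and Cmah. Of these 10, 0 were called by limma, 0 in the authors' deposited table, and 3 had an unadjusted p under 0.05. Over all genes those shares were 9.36%, 9.64% and 26.6%. For the 10 neighbours the limma adjusted p lay between 0.103 and 0.818. Their log2 changes ran from -0.39 (Hfe, SE 0.15) to 0.06 (Zkscan8, SE 0.09). Abt1 stood at 1.77 ± 0.25 log2 CPM in KO (SD, n = 7) and 1.99 ± 0.12 in WT (SD, n = 5). The histone genes among them, Hist1h2be, Hist1h2bc and Hist1h1c, belong to families of near copies, and their values are uncertain.

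Of other butyrophilin family genes on a list of 9, Btnl9 was the one measured, at 3.30 ± 0.33 log2 CPM in KO (SD, n = 7) and 3.65 ± 0.27 in WT (SD, n = 5). Its log2 change was -0.36, and it was not called (SE 0.16, limma adjusted p = 0.174). The other 8, among them Btn2a2 and Ermap, were not found by name among the 11834 genes, so they have no values here. Over the 12 libraries, the genes whose values ran most like those of Btn1a1 were Aldh2, the mitochondrial aldehyde dehydrogenase (Pearson r = 0.964), Kidins220, a membrane scaffold of neurotrophin signalling (r = 0.964), and Tti1, a cochaperone of mTOR-family kinases (r = 0.958). These values were not centred on genotype means, so the difference between genotypes enters them.

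Xdh encodes xanthine dehydrogenase, which converts hypoxanthine and xanthine to urate and, in the lactating cell, also has a structural part in globule release through its binding to butyrophilin. It lies at chr17:73883895-73950196 on the minus strand. Xdh stood at 10.19, 10.66 and 10.94 log2 CPM as lowest, median and highest in KO, against 10.94, 10.86, 10.66, 10.75 and 10.80 in WT replicates 1 to 5. The groups overlapped, and 3 of 7 KO libraries lay below all WT libraries. The log2 change was -0.21 (SE 0.12), not called (limma adjusted p = 0.27), and its 95% interval ran from -0.47 to 0.04. As a share of the WT level, Xdh stood at 86.3% in KO glands, in which Btn1a1 stood at 2.31%.

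Around Xdh, 13 of 15 listed genes of purine breakdown and of the molybdenum cofactor that the enzyme needs were measured, of which 1 rose and 1 fell. Gda, guanine deaminase, which feeds xanthine to Xdh, rose by 0.61 (SE 0.13, limma adjusted p = 0.0126), with every KO library above every WT library, as for 2.69% of all genes. Gphn, gephyrin, which also completes the molybdenum cofactor, fell by 0.46 in KO (SE 0.13, adjusted p = 0.0361), and its libraries overlapped. Hprt, which salvages hypoxanthine, was not called at 0.31 (SE 0.10, adjusted p = 0.0636). The list median was -0.09, against -0.03 over all genes, of which 4.84% rose and 4.52% fell.

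Plin2 encodes perilipin 2 (adipophilin), the coat protein of cytoplasmic droplets in the secretory cell, and lies at chr4:86648386-86670060 on the minus strand. Plin2 stood at 8.96, 9.17 and 9.69 log2 CPM as lowest, median and highest in KO, against 9.85, 9.57, 9.89, 9.69 and 9.52 in WT replicates 1 to 5. Of the KO libraries, 6 lay below all WT libraries, and KO replicate 3, taken on day 8, lay at the value of WT replicate 4. Plin2 fell by 0.51 in log2 (SE 0.12, limma adjusted p = 0.0167), to 594 ± 107 CPM in KO (SD, n = 7), against 840 ± 96 CPM in WT (SD, n = 5). The call ended without WT replicate 1 (adjusted p = 0.0505). With lactation day in the fit the change was -0.53 (SE 0.11, adjusted p = 0.00997).

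Cidea, known in mouse for driving droplet fusion in brown fat and for raising milk lipid secretion, lies at chr18:67343604-67367785 on the plus strand. Cidea stood at 9.42, 10.12 and 10.42 log2 CPM as lowest, median and highest in KO, against 10.36, 10.05, 10.08, 10.19 and 10.30 in WT replicates 1 to 5. KO libraries lay on both sides of the WT range, with 2 above it and 2 below it, and KO replicate 4 was the lowest of all. The log2 change was -0.11 (SE 0.15, limma adjusted p = 0.683), with a 95% interval from -0.43 to 0.21, and without KO replicate 4 it was 0.000159. Of 6 brown fat markers, Cidea included, 3 were measured, and the other 2, Cox8b and Cox7a1, summed to 1.56 to 5.38 CPM in KO and 2.02 to 7.06 CPM in WT. Cidea alone averaged 1113 ± 242 CPM in KO (SD, n = 7), against 1179 ± 111 CPM in WT (SD, n = 5). The annotated span of B430212C06Rik, a transcript of the opposite strand that is also in the table, overlaps the start of Cidea at chr18:67343604-67344103. Exons of the pair were not compared, and whether reads were counted by strand is not stated. Reads from that shared stretch may therefore not be told apart. After centring on genotype means, values most like those of Cidea were those of Cutal (Pearson r = 0.955) and Qsox1, a secreted disulfide-forming oxidase (r = 0.939).

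Rab18, a small GTPase found on droplets and the endoplasmic reticulum, lies at chr18:6733905-6794429 on the plus strand. Rab18 stood at 8.68, 8.36, 8.63, 8.18, 8.89, 7.24 and 7.11 log2 CPM in KO replicates 1 to 7, against 9.07, 8.06, 9.07, 9.04 and 9.04 in WT replicates 1 to 5. KO replicates 6 and 7 held the lowest values of all 12 libraries, followed by WT replicate 2, and the other 9 lay between 8.18 and 9.07. The mean log2 change was -0.70 (SE 0.33), not called (limma adjusted p = 0.202), with a 95% interval from -1.42 to 0.02. With day 10 libraries alone, where WT replicate 2 is among those left out, Rab18 was at -0.99 (SE 0.44, limma adjusted p = 0.253), not called. Among the 10 genes its spread was the widest in each genotype, with an SD of 0.71 in KO and 0.45 in WT.

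The gene whose values ran most like those of Rab18, after centring on genotype means, was Mkx (Pearson r = 0.885 over 12 libraries), a homeobox gene of tendon, followed by Ms4a7 (r = 0.86), a macrophage gene. Mkx is also the next gene of the table along chromosome 18, 140 kb after Rab18, at chr18:6934518-7004780. Mkx stood at 0.80 and 0.17 log2 CPM in KO replicates 6 and 7, the lowest of all libraries, against 1.19 to 2.04 in the other KO libraries and 1.82 to 2.93 in WT libraries, in which WT replicate 2 was the lowest. The log2 change of Mkx was -0.91 (SE 0.32, adjusted p = 0.0947) in limma. The 5 nearest genes on each side of Rab18 were looked at after its values were seen. Among these 10, 0 were called by limma, 1 in the authors' deposited table (Fzd8, a Wnt receptor 2418 kb away), and 3 had an unadjusted p under 0.05. Over all genes those shares were 9.36%, 9.64% and 26.6%. The limma log2 change of Fzd8 was -1.14 (SE 0.35, adjusted p = 0.0529). Of the 10, Kif5b, a kinesin motor 492 kb before Rab18, and Mpp7, a scaffold protein and the next gene after Mkx, ran opposite to Rab18 (r = -0.741 for Kif5b and r = -0.747 for Mpp7), and r of the other 7 lay between 0.0688 and 0.482. What sets these libraries apart around Rab18 was not tested.

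**Figure D2:**
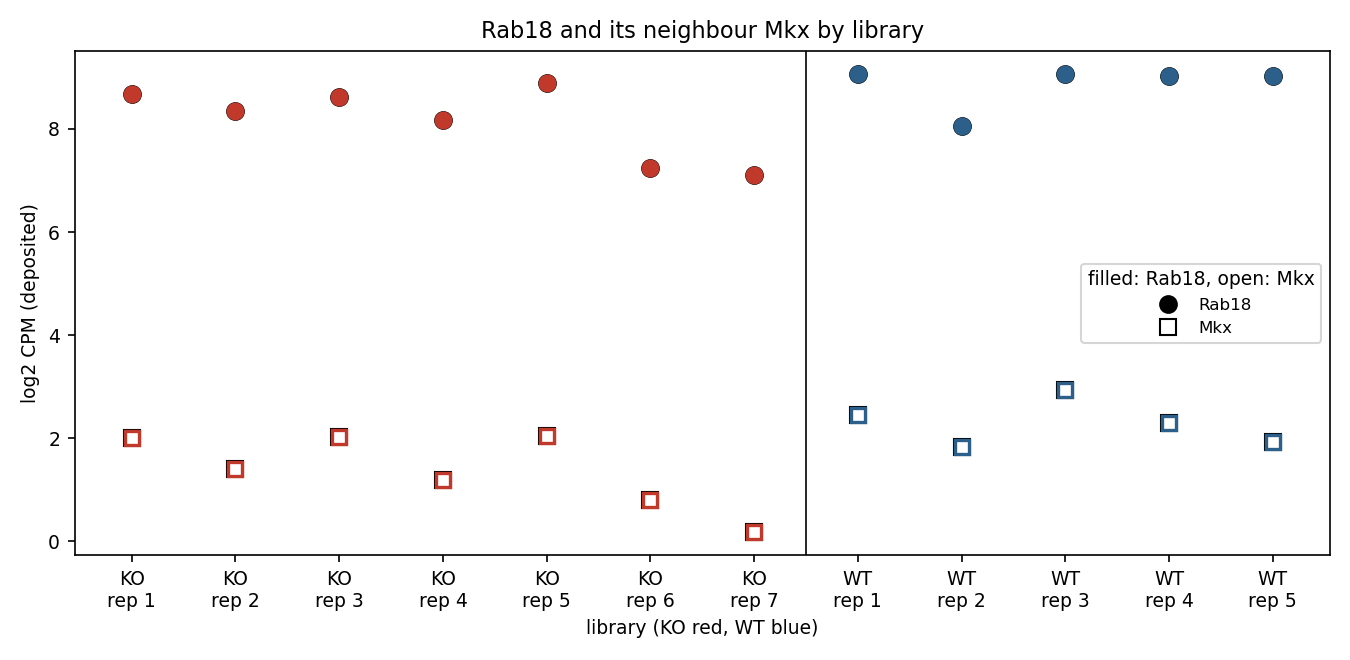
Deposited log2 CPM (y axis) of Rab18 (filled circles) and of its neighbour Mkx (open squares) in each KO (red, left) and WT (blue, right) library. KO replicates 6 and 7 hold the lowest values of both genes, and WT replicate 2 holds the lowest of both among WT libraries.

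Of 22 further genes of droplet growth, coating and breakdown 18 were measured, of which 0 rose and 2 fell, with a median of -0.06. Of all genes 4.84% rose and 4.52% fell, with a median of -0.03. Ldah, a droplet-associated hydrolase, fell by 0.55 in KO (SE 0.09, limma adjusted p = 0.00357), with every KO library below every WT library, as for 2.74% of all genes. Bscl2, seipin, which shapes nascent droplets, fell by 0.32 (SE 0.10, adjusted p = 0.0487), close to the threshold. Hsd17b11, a droplet-bound dehydrogenase, was not called at -0.24 (SE 0.08, adjusted p = 0.0594). The relatives of Plin2 and Cidea, named after their values were seen, were not called: Plin4 was at 0.44 (SE 0.21, adjusted p = 0.204), Plin3 at 0.13 (SE 0.15, adjusted p = 0.626), Plin1 at -0.06 (SE 0.24, adjusted p = 0.901) and Cidec at 0.02 (SE 0.22, adjusted p = 0.968).

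Muc1 encodes the heavily glycosylated apical mucin 1 and lies at chr3:89229057-89233381 on the plus strand. Muc1 stood at 7.41, 8.06 and 8.34 log2 CPM as lowest, median and highest in KO, against 8.63, 8.54, 8.55, 8.54 and 8.47 in WT replicates 1 to 5. Every KO library lay below every WT library, and the KO libraries were spread far more widely, with an SD of 0.34 in KO and 0.06 in WT. Muc1 fell by 0.59 in log2 (SE 0.14, limma adjusted p = 0.0187), to 66.6% of the WT level. The call ended without WT replicate 1 (adjusted p = 0.0516) and with day 10 libraries alone (adjusted p = 0.0578), where the log2 change was -0.55 (SE 0.14).

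Slc34a2 encodes the sodium-phosphate cotransporter NaPi-IIb of the apical membrane and lies at chr5:53038081-53071664 on the plus strand. Slc34a2 stood at 9.85, 10.25 and 10.30 log2 CPM as lowest, median and highest in KO, against 10.80, 10.80, 11.03, 10.59 and 10.66 in WT replicates 1 to 5. The groups did not overlap, and the gene fell by 0.63 in log2 (SE 0.11, limma adjusted p = 0.00485), to 1143 ± 149 CPM in KO (SD, n = 7), against 1763 ± 209 CPM in WT (SD, n = 5). Leaving out any 1 library did not end the call (adjusted p up to 0.0169), and it ended with day 10 libraries alone (-0.52, SE 0.14, adjusted p = 0.0678). Gm17182, an annotated antisense transcript within the span of Slc34a2, fell by 1.47 (SE 0.44, adjusted p = 0.0469). Exons of the pair were not compared and the strand setting is not stated, so whether Gm17182 and Slc34a2 share reads was not tested.

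Of 8 listed genes of phosphate transport 6 were measured. Of these, 0 were called by limma, against 9.36% of all genes, and 0 in the authors' deposited table, against 9.64%. An unadjusted p under 0.05 was found for 1, against 26.6% of all genes. That was Slc20a2, a phosphate transporter of another family, at 0.24 (SE 0.11, adjusted p = 0.187). Its relative Slc20a1 was at -0.18 (SE 0.19, adjusted p = 0.589) and Ank, a pyrophosphate exporter, at 0.12 (SE 0.20, adjusted p = 0.74).

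Adipor2, a receptor of the fat hormone adiponectin, lies at chr6:119353150-119417704 on the minus strand and was the one of the 10 genes that rose. Adipor2 stood at 6.46, 6.55 and 6.67 log2 CPM as lowest, median and highest in KO, against 5.84, 6.33, 5.93, 6.24 and 6.38 in WT replicates 1 to 5. Every KO library lay above every WT library, and here the WT libraries were the more widely spread, with an SD of 0.07 in KO and 0.24 in WT. The change was 0.40 in log2 (SE 0.09, limma adjusted p = 0.0182), or 31.5% higher in KO. The call ended without WT replicate 1 (adjusted p = 0.0506) and with day 10 libraries alone (adjusted p = 0.0822), where the log2 change was 0.41. Adipor1, the other receptor, stood at 5.56 ± 0.09 log2 CPM in KO (SD, n = 7) and 5.56 ± 0.07 in WT (SD, n = 5).

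Of the 5 listed genes of adiponectin signalling 0 were called by limma, against 9.36% of all genes, and 0 in the authors' deposited table, against 9.64%. An unadjusted p under 0.05 was found for 0 of the 5, against 26.6% of all genes. Appl2, an adaptor of the receptors, was at -0.40 (SE 0.19, adjusted p = 0.193), Cdh13, a cadherin that binds adiponectin, at -0.27 (SE 0.14, adjusted p = 0.233), and Adipoq, adiponectin itself, at 0.14 (SE 0.20, adjusted p = 0.694).

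Annotated start regions of 4 called genes are shown because 3 of these genes fell and 1 rose across the KO libraries. RefSeq (GRCm38.p6) windows from 250 bases before to 50 bases after the annotated start were at hand for 6 of the 10 genes, and Btn1a1, Xdh, Cidea and Rab18 had no window in use. Capitals mark the TATA box TATAAA, the E-box CACGTG or the GC box GGGCGG on either strand, with positions counted from the start and no position 0. These motifs were chosen after the windows were seen. The RefSeq starts of Slc34a2 and Adipor2 lie inside the GENCODE gene spans given above, 11.3 kb from the outer start for Slc34a2 and 29 kb for Adipor2, as does that of Cd36 (52.9 kb), so the outer start regions of these 3 genes were not searched.
Muc1 (chr3:89228806-89229105, plus strand): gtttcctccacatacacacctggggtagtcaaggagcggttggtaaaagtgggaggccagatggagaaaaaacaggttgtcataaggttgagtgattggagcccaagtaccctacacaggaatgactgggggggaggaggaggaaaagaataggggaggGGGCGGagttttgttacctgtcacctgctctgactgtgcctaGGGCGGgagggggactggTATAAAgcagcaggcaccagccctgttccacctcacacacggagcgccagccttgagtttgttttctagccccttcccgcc
Slc34a2 (chr5:53049103-53049402, plus strand): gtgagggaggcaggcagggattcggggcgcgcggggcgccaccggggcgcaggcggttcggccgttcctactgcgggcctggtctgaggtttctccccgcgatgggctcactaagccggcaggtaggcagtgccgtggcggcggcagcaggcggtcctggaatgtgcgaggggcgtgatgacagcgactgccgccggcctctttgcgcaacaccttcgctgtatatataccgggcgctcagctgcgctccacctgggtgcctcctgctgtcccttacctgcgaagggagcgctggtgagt
Plin2 (chr4:86670010-86670309, minus strand): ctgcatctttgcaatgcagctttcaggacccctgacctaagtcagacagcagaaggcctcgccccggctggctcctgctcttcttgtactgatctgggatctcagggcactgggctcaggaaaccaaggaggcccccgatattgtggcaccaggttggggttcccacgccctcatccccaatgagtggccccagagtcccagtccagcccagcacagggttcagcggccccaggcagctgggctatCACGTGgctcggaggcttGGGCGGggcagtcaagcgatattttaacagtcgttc
Adipor2 (chr6:119388685-119388984, minus strand): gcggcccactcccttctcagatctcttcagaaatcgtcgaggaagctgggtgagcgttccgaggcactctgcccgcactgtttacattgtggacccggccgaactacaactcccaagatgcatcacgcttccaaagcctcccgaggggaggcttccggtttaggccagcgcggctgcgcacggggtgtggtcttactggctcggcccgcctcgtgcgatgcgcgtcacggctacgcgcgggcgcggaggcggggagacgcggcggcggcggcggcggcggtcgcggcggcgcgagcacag
The Muc1 window held TATAAA at position -31 and GGGCGG at positions -91 and -49. The Plin2 window held CACGTG at position -4 and GGGCGG at position 15. The Slc34a2 and Adipor2 windows held 0 exact matches to the 3. The Slc34a2 window does hold tatatata, a TATA-like stretch that a search for TATAAA cannot find, so absence of a TATA box was not shown. Of the windows not printed, of genes not called, that of Cd36 held GGGCGG at positions -109 and -93. That of Mfge8 held GGGCGG at positions -61, -50, -33 and -12. Among all 32851 windows, TATAAA was in 13.6%, CACGTG in 7.15% and GGGCGG in 35.7%. The Stat5-type motif TTCNNNGAA, found in 8.3% of all windows, and the C/EBP-type motif TTGCNNAAT, in 2.4%, were in 0 of the 6, searched on both strands. Near matches were not counted: ttgcgcaac in the Slc34a2 window departs from TTGCNNAAT at its last base alone. Absence of binding sites was therefore not shown. The motifs marked in these windows did not overlap each other. The annotated span of Gm17182 (chr5:53047687-53049188) reaches into the Slc34a2 window.

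Cd36, a scavenger receptor and fatty acid translocase that is carried onto the globule, lies at chr5:17781690-17888801 on the minus strand. Cd36 stood at 9.36, 9.76 and 9.95 log2 CPM as lowest, median and highest in KO, against 9.95, 9.69, 9.62, 10.25 and 9.85 in WT replicates 1 to 5. The groups overlapped widely, and the log2 change was -0.16 (SE 0.13, limma adjusted p = 0.45), with a 95% interval from -0.44 to 0.11. It was -0.07 without WT replicate 4, -0.10 without KO replicate 1 and -0.37 with day 10 libraries alone, and not called in any of the 3. Cd36 is also made by adipocytes and endothelium. Of 10 white adipocyte markers, Cd36 included, 1 rose, Lep, leptin, by 0.95 (SE 0.17, adjusted p = 0.00522), and 0 fell, with Cfd, adipsin, lowest at -0.24 (SE 0.19, adjusted p = 0.453). The other 9 without Cd36 summed to 388 to 666 CPM in KO and 387 to 618 CPM in WT. Of 9 endothelial markers, Cd36 included, 0 rose and 1 fell, Kdr, a VEGF receptor, by 0.57 (SE 0.14, adjusted p = 0.0234), with Cldn5, a tight junction gene, highest at 0.33 (SE 0.34, adjusted p = 0.581). The other 8 summed to 43.7 to 80.2 CPM in KO and 54.6 to 87.7 CPM in WT. Over all genes, 4.84% were called higher in KO and 4.52% lower. The part of adipocytes and endothelium in the Cd36 level was not tested.

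All 15 listed genes of fatty acid uptake and activation were measured, of which 0 rose and 3 fell, with a median of -0.25. Of all genes 4.84% rose and 4.52% fell, with a median of -0.03. Slc27a4, a fatty acid transport protein with acyl-CoA synthetase activity, fell by 0.45 (SE 0.10, limma adjusted p = 0.0123). Slc27a1, of the same family, fell by 0.69 (SE 0.15, adjusted p = 0.0154). Vldlr, a lipoprotein receptor, fell by 0.51 (SE 0.13, adjusted p = 0.025). Lpl, the lipoprotein lipase that frees fatty acids for the gland, was not called at -0.30 (SE 0.12, adjusted p = 0.111), nor was Fabp3, the fatty acid binding protein of the lactating cell, at -0.25 (SE 0.20, adjusted p = 0.44), and both are named after their values were seen.

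Mfge8 encodes lactadherin, a phosphatidylserine-binding protein of the globule surface that also marks dying cells for uptake, and lies at chr7:79133768-79149060 on the minus strand. Mfge8 stood at 10.30, 10.66 and 10.94 log2 CPM as lowest, median and highest in KO, against 11.23, 11.11, 10.75, 10.80 and 10.94 in WT replicates 1 to 5. Of the KO libraries 4 lay below all WT libraries and 0 above them. The log2 change was -0.30 (SE 0.12), with an unadjusted limma p of 0.0286 and an adjusted p of 0.136, so it was not called, and its 95% interval ran from -0.56 to -0.04. Myoepithelial cells and macrophages can also make Mfge8. Of 9 myoepithelial markers 5 rose and 0 fell, from Myh11, a smooth muscle myosin, at -0.18 (SE 0.10, adjusted p = 0.255) to Krt17, a basal keratin, at 0.62 (SE 0.18, adjusted p = 0.0456). They summed to 489 to 748 CPM in KO and 451 to 591 CPM in WT. Of 9 macrophage markers 4 rose and 0 fell, from Mertk at -0.62 to Cx3cr1, a chemokine receptor, at 0.70 (SE 0.17, adjusted p = 0.0193), with 63 to 91.1 CPM in KO and 55.1 to 73 CPM in WT. Of all genes 4.84% were called higher in KO and 4.52% lower. The part of these cells in the Mfge8 level was not tested.

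Of 16 genes through which Mfge8 or related bridging proteins act on uptake of dying cells, 12 were measured. Of these 1 rose and 0 fell, with a median of 0.15. Of all genes 4.84% rose and 4.52% fell, and 2.69% had every KO library above every WT library. Tyro3, a receptor tyrosine kinase of the TAM family, rose by 1.55 (SE 0.31, limma adjusted p = 0.012), to 4.23 ± 0.59 log2 CPM in KO (SD, n = 7) and 2.68 ± 0.56 in WT (SD, n = 5), with no overlap. Its relatives Axl, at 0.31 (SE 0.10, adjusted p = 0.0552), and Mertk, at -0.62 (SE 0.22, adjusted p = 0.0894), were not called. The integrin chains Itgav, at 0.03 (SE 0.12, adjusted p = 0.921), and Itgb5, at -0.23 (SE 0.09, adjusted p = 0.113), through which Mfge8 binds phagocytes, were not called either and are named after their values were seen.

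A further list held 20 other proteins found in globule membranes, all measured. Of these 7 rose and 0 fell, with a median of 0.14. Of all genes 4.84% rose and 4.52% fell, with a median of -0.03. Nucb2, a secreted calcium-binding protein, rose by 0.49 (SE 0.09, limma adjusted p = 0.0055). Cd9, a tetraspanin, rose by 0.69 (SE 0.14, adjusted p = 0.0115), and Stom, stomatin of lipid rafts, by 1.28 (SE 0.28, adjusted p = 0.0169). Rab11a, Muc4, Epcam and Cd59a were the others called. For Nucb2, Cd9, Stom, Rab11a and Cd59a every KO library lay above every WT library, as for 2.69% of all genes. For Muc4 and Epcam the groups overlapped. The coat genes Muc15, at 9.62 ± 0.23 log2 CPM in KO (SD, n = 7) and 9.74 ± 0.12 in WT (SD, n = 5), and Folr1, the folate receptor, at 9.00 ± 0.26 log2 CPM in KO (SD, n = 7) and 9.28 ± 0.27 in WT (SD, n = 5), were not called and are named after their values were seen. The count for this list was 4 without KO replicate 4 or WT replicate 5, 3 without WT replicate 2 or WT replicate 4, and 1 with day 10 libraries alone. Myoepithelial (5 of 9) and macrophage (4 of 9) markers were also called higher in KO, against 4.84% of all genes, and their part was not tested.

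**Figure D3:**
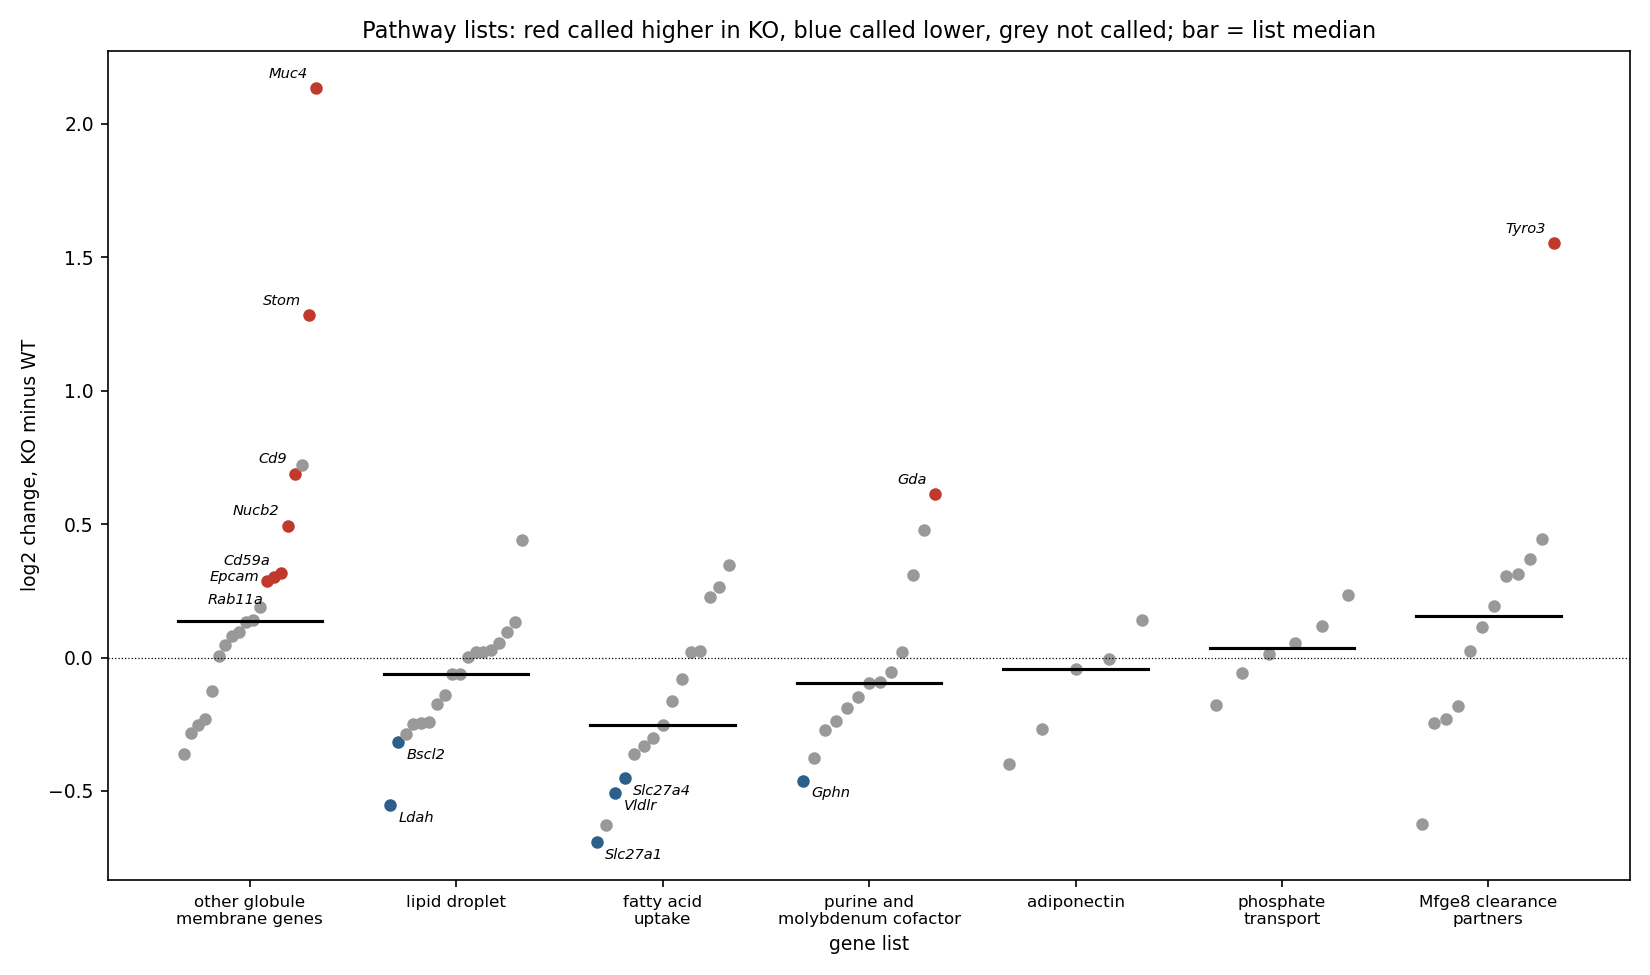
Log2 change, KO minus WT (y axis), of the genes of 7 lists (x axis), ordered by value within a list. Genes called higher in KO are red, those called lower are blue, those not called are grey, and bars are list medians. Of other globule membrane genes 7 of 20 rose, while 3 of 15 fatty acid uptake genes and 2 of 18 lipid droplet genes fell. Of all genes 4.84% rose and 4.52% fell.

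**Figure D4:**
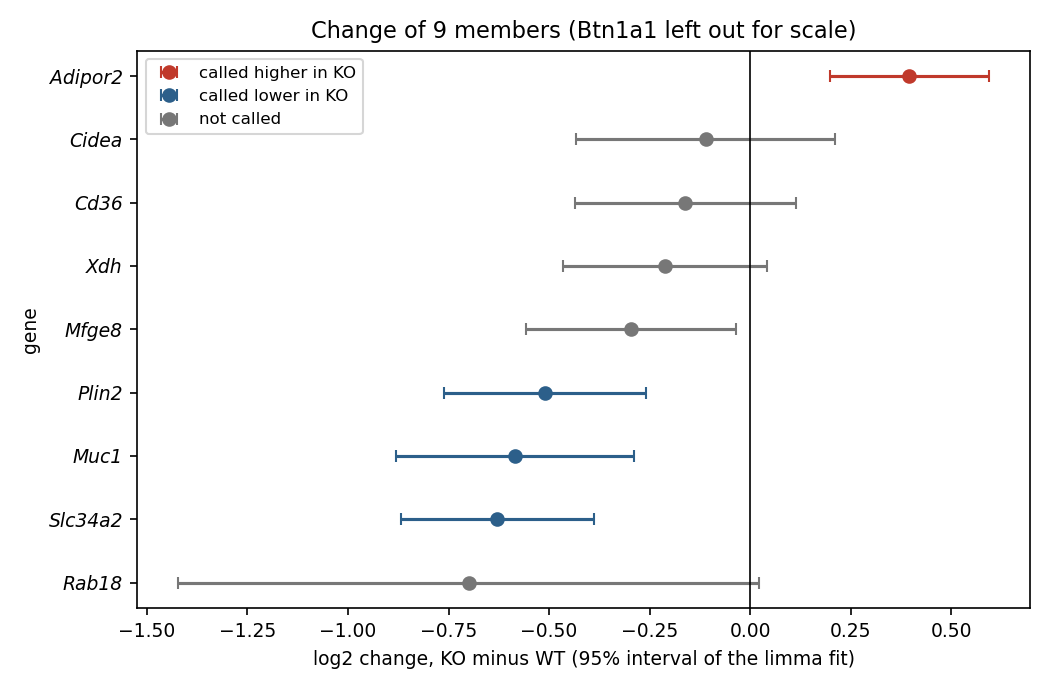
Log2 change, KO minus WT (x axis), with the 95% interval of the limma fit for 9 genes (y axis), leaving out Btn1a1 for scale. The intervals of Slc34a2, Muc1, Plin2 and Mfge8 lie below 0 and that of Adipor2 above it, of which Mfge8 was not called after adjustment, and the interval of Rab18 is the widest, from -1.42 to 0.02.

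Levels of different genes were compared as CPM per kb of exon, the summed length of all annotated exons of a gene, which is not the effective length a transcript counter uses. In KO, Cidea was highest at 999 ± 217 CPM per kb, then Mfge8 at 350 ± 49.6 (SD, n = 7 each). Cd36 at 236 ± 34.4 and Slc34a2 at 228 ± 29.8 CPM per kb did not differ beyond their SDs in KO, nor did Xdh at 170 ± 28 and Plin2 at 169 ± 30.4. Muc1 at 109 ± 23.9, Rab18 at 45.6 ± 18.8, Adipor2 at 15.6 ± 0.809 and Btn1a1 at 12.3 ± 2.4 CPM per kb followed in KO. In WT, Cidea was highest at 1057 ± 99.7 CPM per kb (SD, n = 5). Btn1a1 at 522 ± 34.9, Mfge8 at 430 ± 61.2, Slc34a2 at 352 ± 41.8, Cd36 at 264 ± 47.1 and Plin2 at 239 ± 27.3 CPM per kb came next in WT. For neighbours in this order the ranges of mean ± SD overlapped. No test between genes was made, so equal levels were not shown. Xdh at 195 ± 14.8, Muc1 at 159 ± 6.38, Rab18 at 69.9 ± 17.4 and Adipor2 at 12 ± 1.96 CPM per kb followed in WT. With the longest coding transcript as the length, Cidea stayed at place 1 in KO and WT, Btn1a1 came at place 10 in KO and 3 in WT, and Xdh moved in KO to place 3, against place 5 with all exons.

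The KO libraries did not deviate alike. Of the 9 genes other than Btn1a1, KO replicate 4, taken on day 11, held the lowest KO value of 5, with a median deviation of -0.67 log2 from the WT mean. KO replicate 4 also held the highest KO sum of skeletal muscle markers, at 1620 CPM, against 97.5 to 786 CPM in the other KO libraries and 66.5 to 462 CPM in WT. It did so for white adipocyte markers, at 666 CPM, against 388 to 548 CPM in the other KO libraries and 387 to 618 CPM in WT, and for endothelial markers, at 80.2 CPM, against 43.7 to 64.2 CPM in the other KO libraries and 54.6 to 87.7 CPM in WT. Its secretory luminal sum, 318699 CPM and mostly Csn2 and Wap, was also the highest of all 12 libraries. Its macrophage sum (90.4 CPM) lay below that of KO replicate 1 (91.1 CPM). Its myoepithelial sum (583 CPM) lay below that of KO replicate 7 (748 CPM). Its brown adipocyte sum (4.64 CPM) lay below that of KO replicate 5 (5.38 CPM). The part of these cells was not tested, and without KO replicate 4 the 5 calls among the 10 genes held. KO replicate 2 held the lowest KO value of 2 and lay below all WT libraries for 7 of the 9. KO replicate 3, taken on day 8, held the highest KO value of 4, and its median deviation was -0.15 log2, as in KO replicate 5. With lactation day in the fit, all 5 calls among the 10 genes held.

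**Figure D5:**
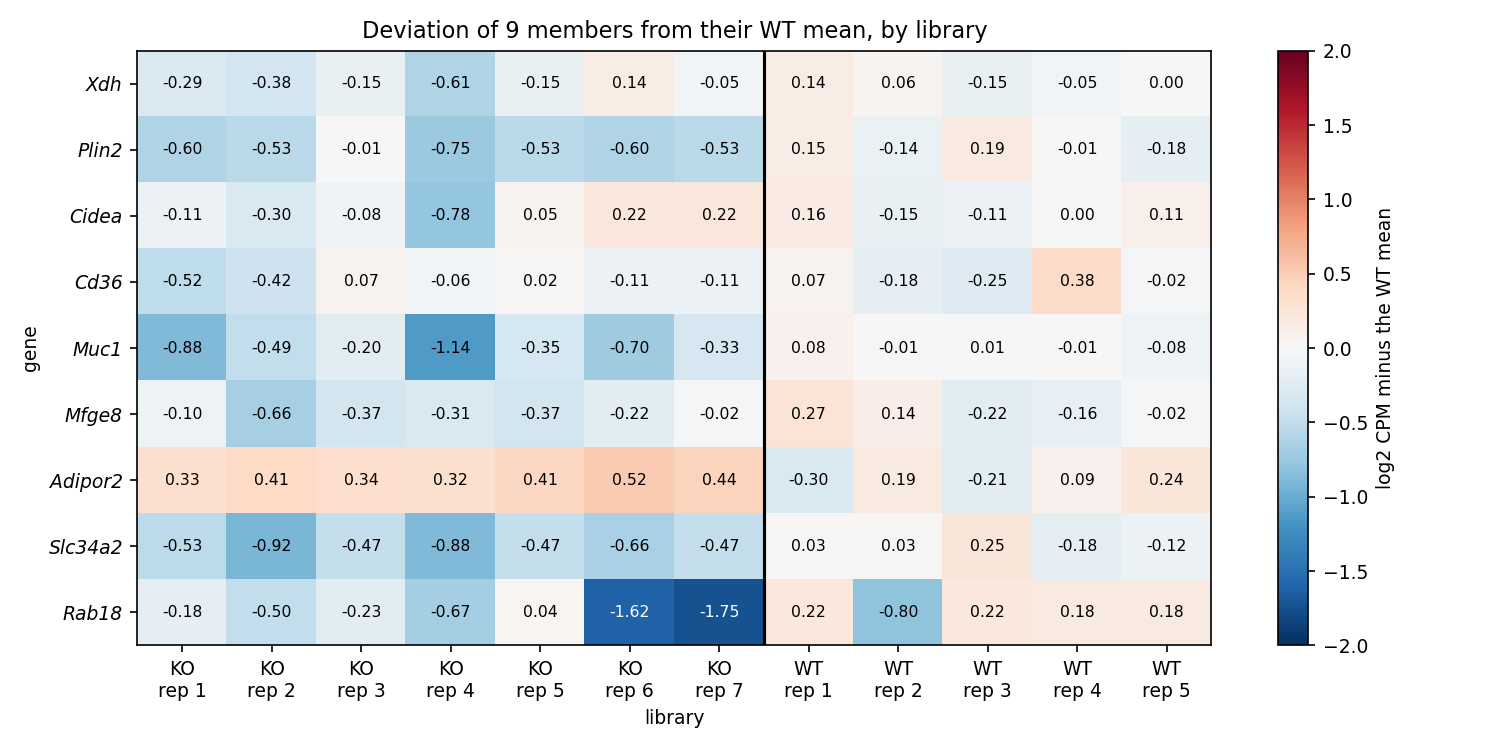
Deposited log2 CPM minus the WT mean for 9 genes (rows, Btn1a1 left out) in 7 KO (left) and 5 WT (right) libraries (columns). Across the KO libraries Slc34a2 and Muc1 are blue, as is Plin2 except in KO replicate 3, Adipor2 is red, and Rab18 is lowest in KO replicates 6 and 7.

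After centring on genotype means, the genes most like the remaining members over the 12 libraries were Rnf216 (r = 0.933) and Sssca1 (r = 0.927) for Xdh, Cacna1a (r = 0.913) for Plin2, and Fbxl20 (r = 0.928) and Fam8a1 (r = 0.922) for Cd36. For Muc1 they were Sh3bp5l (r = 0.961) and Zfp691 (r = 0.941), and for Mfge8 Gcsh (r = 0.891) and Secisbp2 (r = 0.843). For Adipor2 they were Mocs1, of molybdenum cofactor synthesis (r = 0.924), and Rbm47 (r = 0.919), and for Slc34a2 Cd82, a tetraspanin (r = 0.906), and Ubox5 (r = 0.868). These are the highest of 9746 genes searched over 12 libraries that share their normalization, and they are descriptions only.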

How the data were processed

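The authors deposited 1 table of 11834 genes. It holds a log2 CPM value for each of 12 mouse mammary gland libraries, which were TruSeq mRNA libraries for paired reads, per the labels' protocols. Sorted values differ between libraries by less than 0.01 log2 at 67.1% of ranks and by more at the rest. Values normalized to common quantiles look much like this, and linear values sum to 988803 to 988808 CPM per library. The deposited columns also hold the authors' means, SDs, signed fold changes, log2 fold changes, t scores, and p-values with adjusted p-values. Of these the log2 fold changes, p-values and adjusted p-values were used here. The submitters' processing notes name bcl2fastq 2.17 and Trimmomatic 0.33, then STAR 2.5.2b with RSEM 1.3.0, and limma 3.34.5, beside the builds mm10 and hg19. Annotation, strand setting and gene filter were not stated in what was used here. Depth is unknown, so no counting interval is given.

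From these log2 values, limma 3.58.1 (R 4.3.3) tested genotype in all 12 libraries by eBayes with trend and robust options. Tests were two-sided and adjusted over all genes by the Benjamini-Hochberg method. On simulated data for KO against WT with 11834 genes, 84 of 100 genes changed by 1 log2 and 47 of 100 changed by 0.5 log2 were recovered, with 6 false calls. Positions came from GENCODE M21, matched by symbol for 97.1% of genes. Each library is 1 mouse per the labels, and columns of 0 libraries lacked a sample. Alternatives were the replicate block, lactation day, day 10 libraries alone, other centring, filters, moderation and weights, the authors' statistics, and leaving out each library.

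The members and lists were chosen with earlier results of these data known. Named by rule were all members, up to 3 genes of smallest adjusted p per pathway list, the lowest and highest change per marker list, and the 5 nearest measured genes on each side of Btn1a1. Genes most like a member were taken from those averaging 1 log2 CPM or more: 3 by Pearson r for Btn1a1, and 2 for every other member after centring on genotype means. For Plin2, 1 of the 2 is not reported here. Genes outside this rule, the neighbours of Rab18 among them, were chosen after their values were seen.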

Additional observations from a re-analysis of the deposited data

Results flagged for a closer look

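In 20 groups of values (10 genes in KO and in WT), a library stood apart from the rest of its group by Dixon's ratio at the 95% level in 3. That level assumes normally spread values without ties, while these values are shared between ranks, so the count of 3 cannot be set against chance. Rab18 in WT replicate 2 stood at 8.06 log2 CPM, with the other 4 WT libraries between 9.04 and 9.07. Plin2 in KO replicate 3, the library of day 8, stood at 9.69 log2 CPM, with the other 6 KO libraries between 8.96 and 9.17. Btn1a1 in WT replicate 3 stood at 11.23 log2 CPM, with the other 4 WT libraries at one shared value of 11.03, a gap of 2 ranks in abundance. With those 4 tied, any differing value in the remaining library gives a ratio of 1, so this flag carries no weight.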

How the results depend on the processing

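The 10 genes were refitted under 23 alternatives, 12 of which left out 1 library. Btn1a1 was called in all 23, at -5.50 to -5.34 when 1 library was left out. Day 10 libraries alone gave 0 of the 10 called higher and 2 lower (Btn1a1 and Plin2), and without WT replicate 1 there were 0 higher and 2 lower (Btn1a1 and Slc34a2). The ranges without 1 library were 0 to 1 higher and 2 to 4 lower, and the 10 other alternatives gave 1 higher and 4 lower, as reported. Cidea changed sign without KO replicate 4, at 0.000159. Over all genes, against 573 higher and 535 lower as reported, day 10 libraries alone gave 164 higher and 104 lower. Genes whose mean reached 4 log2 CPM gave 248 higher and 286 lower, with fewer genes tested. Leaving out 1 library gave 316 to 670 higher and 243 to 657 lower, and the counts in at least 1 direction moved by over 1.5 times without KO replicate 1 or 2 or WT replicate 1, 2, 3 or 5. The cause was not tested.

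With day 10 libraries alone the genes called were 1 for other globule membrane genes, 1 for lipid droplet genes, 1 for fatty acid uptake, 0 for purine and cofactor genes and 0 for partners of Mfge8 in clearance. Without 1 library the counts were 3 to 7 for other globule membrane genes, 1 to 3 for lipid droplet genes, 2 to 4 for fatty acid uptake, 1 to 3 for purine and cofactor genes, 1 to 3 for partners of Mfge8 and 0 to 1 for adiponectin signalling.

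The replicate block over the 5 shared numbers gave 1 of the 10 genes higher and 4 lower, 589 and 501 over all genes, and Btn1a1 at -5.48. Under it Rab18 was at -0.31 (SE 0.15) and Cidea at -0.24 (SE 0.14), both not called, in a fit that leaves out KO replicates 6 and 7. Libraries of the same number shared only a number: their deviations correlated at -0.17 to 0.21, and 2 of 5 KO libraries correlated best with their own number. The values were deposited on a log scale and after a filter, so no pseudocount was varied and no unfiltered fit was made. Depth is unknown, which limits what can be said of genes near the bottom of the table, such as Mkx.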
